A study of Mus musculus with 6 samples.

Results

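Vdr, Rxra, Rxrb, Cyp24a1, Pth1r and Pthlh are the genes at the head of the vitamin D and parathyroid hormone pathways, and all 6 had at least 1 non-control probe among the 20659 named genes of the array. They were selected by gene symbol, with earlier results of these data known, and their differences between the scaffolds are therefore given as a description. They were part of the model fitted over all genes, but nothing is read from their own threshold calls. The cells were MC3T3-E1, a clonal mouse pre-osteoblast line, grown for 3 days either on FeMnSi, an iron, manganese and silicon alloy scaffold in its original state (n = 3), or on De-HA, the same kind of scaffold after dealloying and a bioactive coating (n = 3). No vitamin D or hormone treatment is named for either group. Total RNA of each sample was labelled with Cy3 and read on 1 single-colour Agilent array, and the labels do not say whether the 3 samples of a group were separate cultures, so the errors and p-values below reflect sample-to-sample spread alone, and this may be technical.

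The vitamin D receptor, encoded by Vdr, is a nuclear receptor that binds DNA paired with a retinoid X receptor, the product of Rxra, Rxrb or Rxrg. The active hormone is made from vitamin D by Cyp2r1 and Cyp27b1, the 25-hydroxylase and 1-alpha-hydroxylase, and is broken down by the 24-hydroxylase Cyp24a1, a gene that the liganded receptor itself switches on. Pth1r encodes the receptor shared by parathyroid hormone and by parathyroid hormone-related protein, the product of Pthlh; it signals mainly through cyclic AMP and is used as a marker of the osteoblast lineage.

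The regions before the start sites of Vdr and Pthlh, the members with the largest differences, are shown because both genes were higher on De-HA. They are the 250 bases before the RefSeq start of each gene on GRCm38.p6, at chr15:97908297-97908546 for Vdr and chr6:147264014-147264263 for Pthlh, both on the minus strand and written 5′ to 3′. Capitals mark the GC box GGGCGG on either strand, and in Pthlh also the 1 match to the nuclear receptor site GGTTCA, on the opposite strand.
Vdr: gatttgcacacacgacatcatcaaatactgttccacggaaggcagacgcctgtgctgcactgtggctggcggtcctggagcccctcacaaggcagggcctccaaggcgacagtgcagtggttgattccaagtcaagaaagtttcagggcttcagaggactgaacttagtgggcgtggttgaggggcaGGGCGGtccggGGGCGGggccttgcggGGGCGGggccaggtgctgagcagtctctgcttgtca
Pthlh: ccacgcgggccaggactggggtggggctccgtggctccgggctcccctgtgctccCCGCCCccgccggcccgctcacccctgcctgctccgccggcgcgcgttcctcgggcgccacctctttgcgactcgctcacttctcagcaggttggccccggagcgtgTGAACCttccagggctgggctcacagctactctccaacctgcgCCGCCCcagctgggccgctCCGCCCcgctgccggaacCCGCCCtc

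Vdr has 3 GC boxes, at 63, 52 and 36 bases before its start, and Pthlh has 4, at 195, 45, 26 and 8 bases, in a sequence that is 75.2% G or C in Pthlh and 61.2% in Vdr. A GC box was found in 32.7% of the 32851 promoter windows of the same length in the RefSeq table, so this element is common. Windows were on hand for Vdr, Rxra, Rxrb, Pth1r and Pthlh, 9 in all because Rxra, Rxrb and Pth1r have several starts, and 7 of the 9 held a GC box. No window held a direct repeat of AGGTCA or of GGTTCA with a spacer of 3 bases, the type the vitamin D receptor pair binds, the cyclic AMP response element TGACGTCA or the TATA box TATAAA. These occur in 0.00609%, 0.00609%, 1.55% and 12.4% of all windows. The single site AGGTCA, which also forms part of the first repeat, was found in 1 window, at the downstream start of Rxra, against 14% of all windows. GGTTCA was found in 1 window, that of Pthlh, against 8.85%, and TGACG, which is part of the cyclic AMP element, in 2 windows, 1 each of Rxrb and Pth1r, against 17.8%. Both strands were searched for every motif.

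The arrays differed in detection, with De-HA 1 apart from the others. The share of spots well above background was 63.8% on De-HA 1 and 69.5% to 74.5% on the other arrays. The lowest signal that counted as above background was 21.8 on De-HA 1 and 11.8 to 14.5 on the others. Saturated spots were absent on all 6. Arrays that shared a scan time were taken to share a slide, since the sample labels name no slide. On this reading all De-HA arrays were on slide 1 with FeMnSi 1, while the other FeMnSi arrays were on slide 2. A value within slide 1 thus sets the De-HA mean against FeMnSi 1 alone. Over all genes tested, 6.37% were higher and 4.31% lower on De-HA at an adjusted p of 0.05 in limma. Of the labelled cell type, all 10 osteoblast markers were measurable, 5 of them higher and 2 lower at this threshold. Of other cell types, the chondrocyte list had 1 of 4 tested genes higher, Col2a1, while Acan and Comp were not measurable. Its summed signal, in units of each array's 75th percentile, was 21.8 to 22.8 on De-HA and 15.1 to 15.8 on FeMnSi. The endothelial list had 1 of 2 tested genes higher, with summed signals of 0.817 to 0.900 against 0.632 to 0.666 and with Cdh5, Tek, Emcn and Tie1 not measurable. The myeloid list had 2 higher and 2 lower of 6, with sums of 4.06 to 4.57 against 3.19 to 4.42. The adipocyte list had 1 lower of 5, with sums of 0.239 to 0.273 against 0.322 to 0.367 and Adipoq not measurable. The part of these markers in the results was not tested, and in bulk RNA a change in the number of cells of a type cannot be told apart from a change in RNA per cell.

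Vdr showed the widest separation of the 6 genes. Its probe read 2756, 1611 and 1775 signal units on De-HA 1, 2 and 3, against 740.5, 721 and 919 on FeMnSi 1, 2 and 3. After division by the 75th percentile of each array, the log2 levels were 2.17, 1.33 and 1.62 on De-HA and 0.19, 0.01 and 0.41 on FeMnSi. The lowest De-HA array thus lay 0.91 log2 units above the highest FeMnSi array, and De-HA 1 stood above both other De-HA arrays. The group means were 1.70 ± 0.43 (SD, n = 3) and 0.21 ± 0.20 (SD, n = 3), a difference of 1.5 ± 0.24 (SE) on the log2 scale, or 2.83-fold. Within slide 1 the difference was 1.51. The FeMnSi arrays of slide 2 averaged 0.02 above the one on slide 1, but FeMnSi 2 lay below it and FeMnSi 3 above it. By size of difference Vdr was in position 20 from the largest rise among the 15535 genes tested.

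Rxra and Rxrb, whose products pair with the vitamin D receptor, differed little between the scaffolds. Rxra had 2 probes. The brighter probe read 206, 214 and 198 on De-HA and 195, 216 and 215 on FeMnSi, with log2 levels of -1.58, -1.59 and -1.54 against -1.73, -1.73 and -1.68. These groups did not overlap after scaling, but the unscaled signals did. The difference was 0.14 ± 0.09 (SE), which is near the median of 0.10 over all genes, and 0.16 within slide 1. The dimmer probe read 41.9, 52.7 and 46.5 on De-HA and 37.5, 44.7 and 55.9 on FeMnSi. Its groups overlapped, with FeMnSi 3 at the level of the upper De-HA arrays, and its difference was 0.21 ± 0.17 (SE), or 0.41 within slide 1.

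Rxrb, which encodes the beta receptor, read 3107, 3415 and 3036 on De-HA and 3239, 2899 and 3389 on FeMnSi. The log2 levels were 2.34, 2.41 and 2.40 against 2.32, 2.02 and 2.30, so that the groups were apart by 0.02 and FeMnSi 2 was the single low array. The difference was 0.17 ± 0.12 (SE), and 0.06 within slide 1. For Rxrg, the gamma receptor gene, 1 probe was not well above background on any array. The other read 1149.6, 1164 and 912 on De-HA and 809, 973 and 1018 on FeMnSi. Its difference was 0.37 ± 0.12 (SE), 0.49 within slide 1, and it did not pass in limma across all genes (adjusted p = 0.0741). The probes of Rxrg thus differed in detection.

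Cyp24a1, the gene most widely used as a readout of vitamin D receptor activity, was not detected in either group. Its 1 probe read 5.19, 6.54 and 5.0 on De-HA and 3.05, 7.10 and 9.92 on FeMnSi, and it was not well above background on any of the 6 arrays. The lowest signal that counted as above background ran from 11.8 to 21.8 over the arrays. No fold is given for Cyp24a1, and a change below this limit could not have been seen.

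The activating enzymes were measurable. Cyp2r1, by its brighter probe, read 356, 349 and 258 on De-HA and 253, 277 and 287 on FeMnSi, a difference of 0.39 ± 0.13 (SE) that did not pass in limma (adjusted p = 0.0761). Its other probe was above background on 2 De-HA arrays and on no FeMnSi array. Cyp27b1 read 49.2, 57.4 and 42.6 on De-HA 1, 2 and 3. On FeMnSi it read 31.9 on the array of slide 1 and 103 and 91.2 on those of slide 2, so the De-HA arrays fell between the slides. The pooled difference was -0.27 ± 0.42 (SE) with an adjusted p of 0.639 in limma, while within slide 1 it was 0.72, in the opposite direction. FeMnSi 2 and 3 lay 1.49 log2 units above FeMnSi 1 for this probe, which is more than its difference between the scaffolds by either reckoning.

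**Figure D1:**
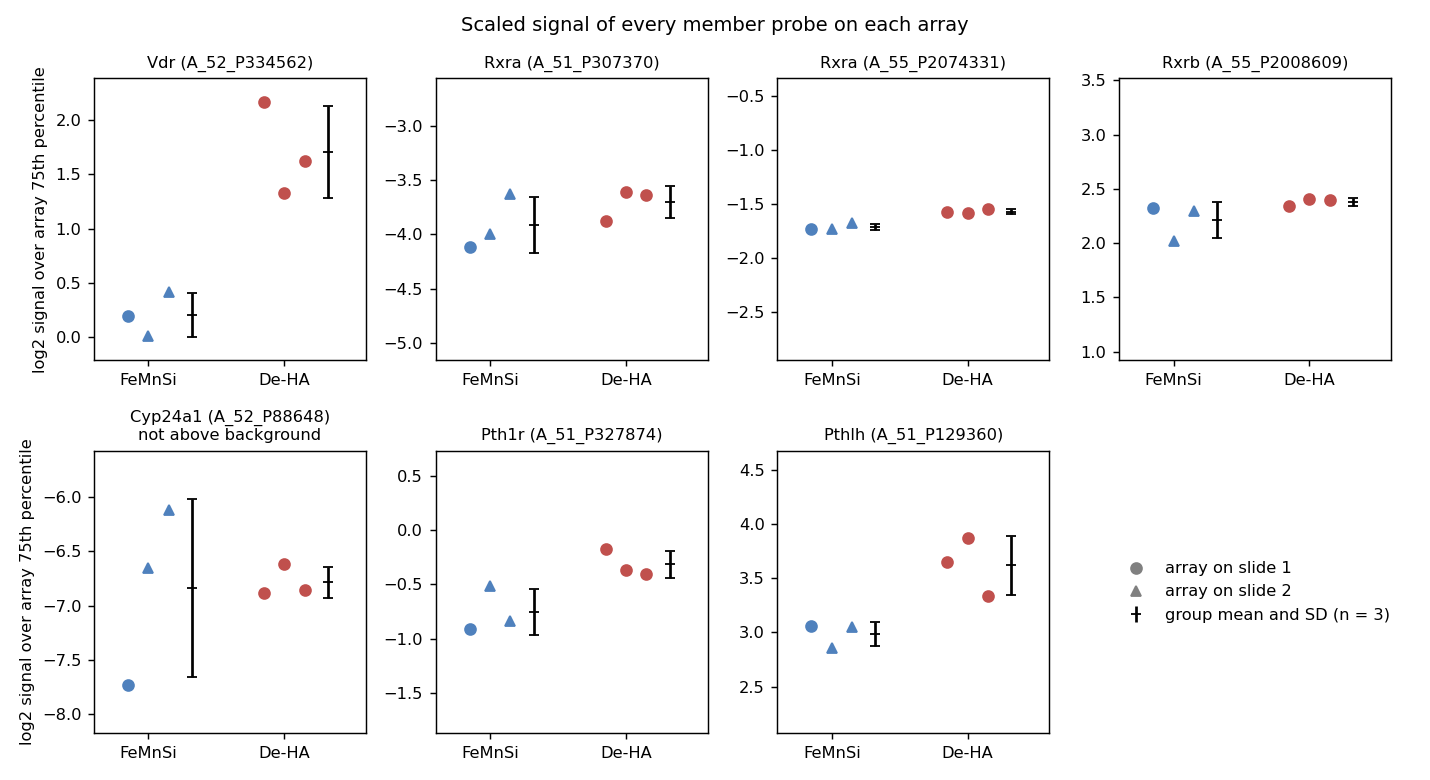
Log2 signal over the 75th percentile of the array (vertical axis, 1 panel per probe, a span of at least 2.6 log2 units in each) for every probe of the 6 genes on the 3 FeMnSi arrays (blue) and the 3 De-HA arrays (red). Circles are arrays of slide 1, triangles of slide 2, and the black bar is the group mean with its SD. Vdr shows the widest gap between the groups, and Cyp24a1 was not above background on any array.

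**Figure D2:**
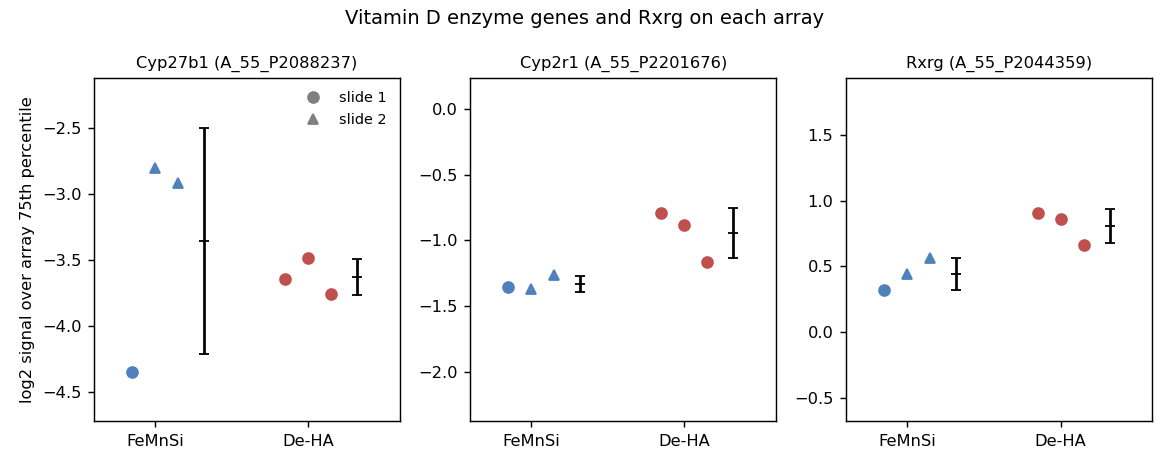
Log2 signal over the 75th percentile of the array for Cyp27b1, the detected probe of Rxrg and the brighter probe of Cyp2r1, with FeMnSi in blue, De-HA in red, circles for slide 1, triangles for slide 2 and black bars for the group mean and SD (n = 3). For Cyp27b1 the FeMnSi array of slide 1 lies below and those of slide 2 above all De-HA arrays.

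Pth1r, the receptor of parathyroid hormone and its related protein, was moderately higher on De-HA. Its probe read 545, 497 and 436 on De-HA and 345, 500.4 and 386 on FeMnSi. The log2 levels were -0.17, -0.37 and -0.41 against -0.91, -0.52 and -0.84, and the groups were apart by 0.11, with FeMnSi 2 nearest to the De-HA arrays. The difference was 0.44 ± 0.15 (SE), or 1.36-fold, and 0.60 within slide 1.

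Pthlh, which encodes the ligand made by the cells themselves, was also higher. It read 7701, 9407 and 5809 on De-HA and 5400.5, 5182 and 5689 on FeMnSi, with log2 levels of 3.65, 3.87 and 3.33 against 3.06, 2.86 and 3.05. De-HA 3 was the lowest De-HA array and lay 0.27 above the highest FeMnSi array. The difference was 0.63 ± 0.17 (SE), or 1.55-fold, and 0.56 within slide 1. Pth, the gene of the hormone itself, which is made in the parathyroid gland, and Pth2r, a further receptor gene, did not reach the background limit on any of the 6 arrays.

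In all, 5 of the 6 members were tested, each well above background on all 6 arrays. After scaling, each had all De-HA arrays above all FeMnSi arrays. Such a gap was found for 26.2% of the 15535 genes in the higher direction and for 39.6% in either direction. Without scaling, the signals of Rxra, Rxrb and Pth1r overlapped between the groups. The 75th percentile used for scaling was 577 to 642 on the De-HA arrays and 649 to 716 on the FeMnSi arrays. At an adjusted p of 0.05 in limma, 2 of the 5, Vdr and Pthlh, were past the threshold as higher, against 6.37% of all genes. As the members were proposed with this contrast known, nothing is read from these counts. The median difference of the 5 was 0.44 on the log2 scale, against 0.10 for all genes. Vdr was no longer past the threshold in a fit with a slide term, in slide 1 by itself (1.51 in both) or without De-HA 3 (1.54). Pthlh was past it in 1 of the 6 fits that left out an array, the one without FeMnSi 1 (0.67). In that fit scaffold and slide coincide and cannot be told apart. Pthlh was not past the threshold without De-HA 1, 2 or 3 (0.62, 0.50 and 0.77) or FeMnSi 2 or 3 (0.57 and 0.66). It was not past it in the slide-blocked fit (0.56), with a replicate block (0.63) or after quantile normalization (0.47). Pthlh also fell short with median scaling (0.55), normexp background correction (0.43), series matrix values (0.47) and with dim probes kept.

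**Figure D3:**
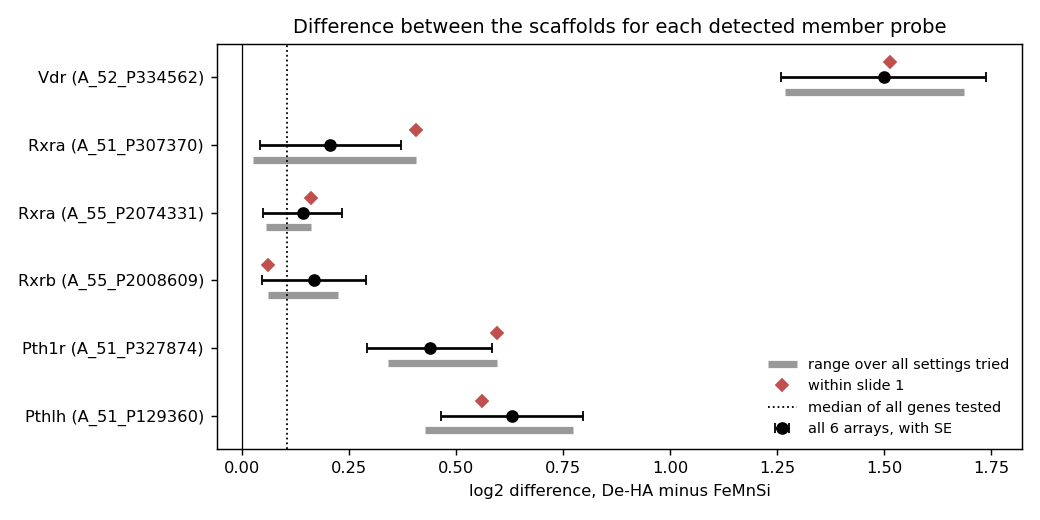
Log2 difference, De-HA minus FeMnSi (horizontal axis), for the 6 detected probes of 5 genes. Black points with bars are the estimate from all 6 arrays and its SE, red diamonds the value within slide 1, grey bars the range over the main fit and 15 other settings, and the dotted line the median of all genes tested. The Vdr range, 1.27 to 1.69, lies to the right of all others, and the probes of Rxra and Rxrb lie near the median of all genes.

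The arrays differed in which member was high. De-HA 1 had the highest Vdr and Pth1r levels, De-HA 2 the highest Pthlh and Rxrb levels, and De-HA 3 the highest level by the brighter Rxra probe. On FeMnSi, the array with the highest Vdr, FeMnSi 3, was not the one with the highest Pth1r, FeMnSi 2. The members thus did not share 1 order over the arrays within a group.

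By distance of the gene-centred log2 levels over the 6 arrays, the genes with the pattern nearest to that of Vdr were Tmie (distance 0.51), Igf1 (0.56), Olfr152 (0.59), Actg2 (0.62) and Slit2 (0.62). Igf1 encodes insulin-like growth factor 1, a growth factor that osteoblasts secrete. Its log2 levels were 4.63, 4.45 and 4.53 on De-HA and 3.37, 2.92 and 3.39 on FeMnSi. All De-HA arrays lay above all FeMnSi arrays, as for Vdr, and the De-HA arrays lay closer together than those of Vdr. Actg2 encodes a smooth muscle actin and Slit2 a guidance ligand. Tmie and Olfr152 were well above background on all 3 De-HA arrays and on 0 of the 3 FeMnSi arrays, so their FeMnSi levels are only bounds and their distances and places in this order are not settled. Igf1, Actg2 and Slit2 were above background on all 6 arrays. The likeness is a description over 6 arrays, and the group difference makes up most of it.

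To set the members in their pathways, 7 lists of known partners, enzymes and responsive genes were followed. The lists, too, were chosen with earlier results of these data known, so their counts and shares are a description. They held 131 genes in all, of which 112 were tested. Of these, 13 rose and 6 fell on De-HA in limma at an adjusted p of 0.05 over all genes. Vdr, chosen with this contrast known, is among them, and without the members 12 of 109 rose. The 19 calls make up 17% of the tested list genes, against 10.7% of all genes, and 11.6% against 6.37% for rises and 5.36% against 4.31% for falls. In the slide-blocked fit, 5 of the 112 passed (4.46%), namely Phex, Rgs2, Thbd, Spp1 and Adcy7, against 1.25% of all genes. After quantile normalization, 11 list genes rose and 8 fell, against 4.41% and 5.66% of all genes, or 10.1% in either direction.

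Among genes known to respond to the active hormone, 4 of 17 tested rose and 2 fell, against 6.37% and 4.31% of all genes. Of the 25 listed, 8 were not measurable, Cyp24a1 among them. The list does not give the direction in which the hormone moves each gene, so no rise or fall is read as a response. Phex, an endopeptidase gene of bone cells, rose by 1.66 ± 0.11 (SE, adjusted p = 0.00141). Thbd, the gene of thrombomodulin, rose by 0.90 ± 0.09 (SE, adjusted p = 0.00625) and Lrp5, a Wnt co-receptor gene, by 0.42 ± 0.08 (SE, adjusted p = 0.0296). Spp1, the osteopontin gene, fell by 1.08 ± 0.11 (SE, adjusted p = 0.00469). Lrp5 did not pass in the slide-blocked fit (adjusted p = 0.163). It passed in 1 of the 6 fits that left out an array, the one without FeMnSi 1, where scaffold and slide coincide. The list median was 0.02 on the log2 scale, against 0.10 over all genes. It lay on the other side of the all-gene median in the slide-blocked fit and within slide 1 by itself (0.19 against 0.06 in both). The same held without De-HA 2 (0.14 against 0.10) and without FeMnSi 2 (0.103 against 0.085). After quantile normalization the list median was -0.16 (0.00 for all genes).

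The enzymes and carriers of vitamin D gave no gene past the threshold among 7 tested, by limma. At an unadjusted p under 0.05 in limma there were 2 of the 7, against 5238 of all 15535 genes. The smallest p-values belonged to Cyp2r1 and to Cyp3a11, a drug-metabolising enzyme gene (0.64 ± 0.20 SE, adjusted p = 0.0794). Of 15 coregulators of the receptor, 1 rose, against 6.37% of all genes. It was the corepressor gene Ncor1 (0.43 ± 0.10 SE, adjusted p = 0.0393). Its 3 probes ran from -0.25 to 0.43, so its direction depends on the probe, and in the slide-blocked fit it did not pass (adjusted p = 0.0836). The medians were 0.05 for the metabolism list and 0.19 for the coregulators, and their order turned in the slide-blocked fit (0.14 and 0.03). After quantile normalization they were -0.02 and 0.08. All genes had medians of 0.10 in the main fit, 0.06 in the slide-blocked fit and 0.00 after quantile normalization.

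Of all genes, 6.37% were past the threshold as higher and 4.31% as lower. Among 18 tested nuclear receptors that pair with a retinoid X receptor, or are one, 3 were past it as higher and none as lower. These were Vdr, Nr4a2, an orphan receptor gene of the immediate early response (0.86 ± 0.18 SE, adjusted p = 0.0360), and Thra, the thyroid hormone receptor alpha gene (0.54 ± 0.13 SE, adjusted p = 0.0462). The log2 differences of the list ran from -0.07 to 1.5, with Vdr at the top. The median was 0.19, or 0.15 in the slide-blocked fit and 0.079 after normexp background correction. The medians of all genes were 0.10, 0.06 and 0.0006. Nr4a2 and Thra did not pass in the slide-blocked fit (adjusted p = 0.227 and 0.275). Both passed in 1 of the 6 fits that left out an array, the one without FeMnSi 1, where scaffold and slide coincide. Thra did not pass after quantile normalization (adjusted p = 0.113).

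Downstream of the parathyroid hormone receptor, 1 of 34 tested genes of the signalling chain rose and 1 fell, against 6.37% and 4.31% of all genes. Pde4b, a phosphodiesterase that breaks down cyclic AMP, rose by 1.06 ± 0.16 (SE, adjusted p = 0.0131), and Adcy7, an adenylyl cyclase that makes it, fell by 0.88 ± 0.08 (SE, adjusted p = 0.00388). Adcy7 passed also in the slide-blocked fit (adjusted p = 0.0376), and Pde4b did not (adjusted p = 0.0910), nor without De-HA 3 or FeMnSi 3 (adjusted p = 0.0612 and 0.0633). The remaining 32, among them the G protein genes and the catalytic subunit genes of protein kinase A, did not pass. The list median was 0.22, against 0.10 for all genes. It was 0.11 in the slide-blocked fit, 0.095 after normexp and 0.12 in the series matrix. The medians of all genes in these settings were 0.06, 0.0006 and -0.005.

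Genes known to be induced by the hormone or by cyclic AMP in osteoblasts went both ways. Of 25 tested, 6 were higher and 3 lower, against 6.37% and 4.31% of all genes, with Vdr again counted among the 6. Rgs2, a regulator of G protein signalling, rose by 1.34 ± 0.09 (SE, adjusted p = 0.00141), though its other probe gave 0.52. Csf1, which encodes a growth factor of macrophages, rose by 0.61 ± 0.10 (SE, adjusted p = 0.0152) by its brightest probe, and its 3 probes ran from -0.17 to 0.61. Sgk1, a kinase gene induced by hormones and serum, fell by 1.07 ± 0.12 (SE, adjusted p = 0.00768). In the slide-blocked fit Rgs2 passed (adjusted p = 0.0167), and Sgk1 and Csf1 did not (adjusted p = 0.0630 and 0.0984). Csf1 also did not pass without De-HA 2, De-HA 3 or FeMnSi 3 (adjusted p = 0.0634, 0.0750 and 0.0545). The list median was 0.02, or -0.02 in the slide-blocked fit and 0.10 without De-HA 2, against 0.10, 0.06 and 0.10 for all genes. Of the 4 genes listed as lowered by the hormone, Sost and Dkk1 were not measurable, and Mef2c and Ccnd1 gave 0.42 and 0.48 and did not pass (adjusted p = 0.0845 and 0.123).

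**Figure D4:**
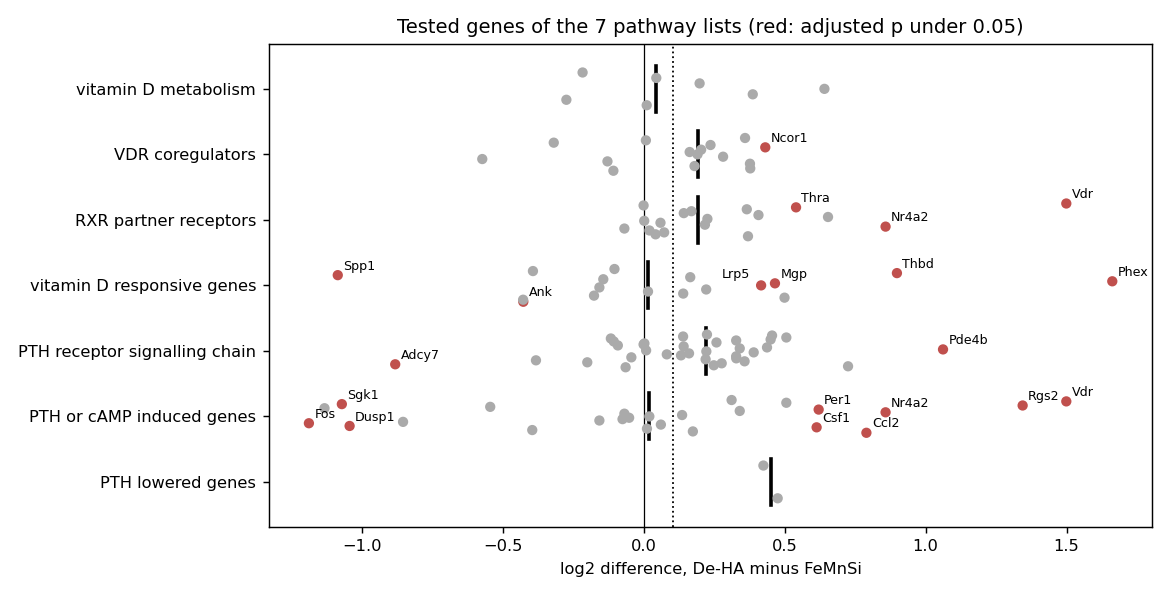
Log2 difference, De-HA minus FeMnSi (horizontal axis), of every tested gene of the 7 lists (rows, 112 genes, some in more than 1 list). Red points are genes past an adjusted p of 0.05 in limma over all genes and carry their names, grey points are the others, black bars are list medians and the dotted line is the median of all genes, 0.10. Vdr and Phex are the points furthest to the right, and Fos, Spp1, Sgk1 and Dusp1 the red points furthest to the left.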

How the data were processed

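Gene expression was measured on 6 Agilent arrays. The deposited scanner files hold linear intensity values per spot, background-subtracted and detrended within each array by Agilent Feature Extraction 11.0.1.1, per the file headers and the submitters' processing notes, and not scaled between arrays. The deposited series matrix holds log2 values with equal column medians (5.78), whose making is not given in the sources used here. It served as an alternative.

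Outlier spots were left out, each array was scaled to the 75th percentile of its non-control spots on the log2 scale, and repeat spots were averaged. A probe was kept if at least 3 of 6 arrays had it well above background and was named through its RefSeq transcript (GRCm38.p6; 27234 of 28684 such probes matched 1 gene), and the brightest probe stood for a gene. limma 3.58.1 in R 4.3.3 (lmFit, eBayes) compared the groups over 15535 genes with Benjamini-Hochberg adjustment (threshold 0.05), and placed 1658 past it. Member estimates and errors came from the same model over all probes. The method was tested on simulated data drawn without a slide effect, so that test does not cover the slide layout of these arrays. The members were part of the fit over all genes, but nothing is read from their calls and no p-value is printed for them. The named genes are the members, up to 4 genes per list with the smallest p-values past the threshold (2 where none passed), Pth, Pth2r, Cyp27b1, Cyp2r1 and Rxrg, and the 5 nearest patterns. The members and lists were chosen with earlier results of these data known. Samples were not treated as paired by replicate number in the main fit.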

Additional observations from a re-analysis of the deposited data

How the results depend on the processing

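All 6 detected member probes stayed higher on De-HA under the 15 other settings run on them, and their values ranged from 1.27 to 1.69 for Vdr, 0.34 to 0.60 for Pth1r, 0.43 to 0.77 for Pthlh, 0.060 to 0.22 for Rxrb, and 0.057 to 0.16 and 0.027 to 0.41 for the brighter and dimmer Rxra probes. The brighter Rxra probe moved by more than its small spread, from 0.14 to 0.12 after quantile normalization, 0.057 with median scaling, 0.074 after normexp and 0.12 in the series matrix. Scaling shifted all genes: their median was 0.10, against 0.00 after quantile normalization, and 59.7% of changed genes were higher, against 43.8% after quantile normalization, 37.3% with median scaling, 45.2% after normexp and 41.3% in the series matrix. The number of changed genes, 1658, was 519 when dim probes were kept, 194 in the slide-blocked fit and 57 within slide 1 by itself, where fewer samples inform the estimate. The list genes past the threshold, 19, numbered 9, 5 and 2 in the same settings. Leaving out 1 array gave 240 to 4476 changed genes and 7 to 42 list genes. The highest of each came without FeMnSi 1 and the lowest without FeMnSi 3, and the cause was not tested. Without FeMnSi 1, all De-HA arrays were on slide 1 and all FeMnSi arrays on slide 2. Scaffold and slide therefore cannot be told apart in that fit.

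With a replicate block, 648 genes and 10 list genes passed, and Vdr but not Pthlh. The deviations of same-numbered arrays from their group means had correlations of 0.01, -0.11 and 0.12, and not every array correlated best with its own number. Each group mean rests on few arrays, which ties the deviations within a group to each other, and the FeMnSi arrays were split over the slides. These correlations therefore cannot decide whether the numbers pair the samples. Normexp and the comparison within slide 1 were chosen after seeing the data, the former run on the median pixel signal in place of the planned run on the mean signal, which could not be made from the columns used here. Signals near background limit Cyp24a1, Pth, Pth2r and the dimmer Rxrg probe.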
